A study of Mus musculus with 4 samples.

Results

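Transcripts of the receptors for glutamate and GABA were followed in single-cell libraries of mouse tumours driven by SMO-M2. All genes whose symbols begin with Gria, Grik, Grid, Grin or Grm and a number, or with Gabra, Gabrb, Gabrd, Gabre, Gabrg or Gabrr, were taken, which gave 45 of the 32286 features. Of these, 43 encode receptor subunits. The other 2 were Grin1os, an antisense transcript at the Grin1 locus, and a gene for a receptor-binding protein.

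Tumour tissue, labelled MB, was dissociated and captured with the 10x Genomics 3' kit V3. YSG stands for fYap1;fSMO-M2;hGFAPcre, that is floxed Yap1 added to SMO-M2, described by the submitters as rescued animals at end point. SG stands for fSMO-M2;hGFAPcre without the floxed Yap1. All tumours of both genotypes carried SMO-M2, a constitutively active Smoothened, and a Cre recombinase under the human GFAP promoter, which is active in neural progenitors of several lineages besides the granule lineage. Each combination of genotype and sex was 1 library: YSG males, YSG females, SG males and SG females. The number of animals behind a library, their ages and the zygosity of the alleles were not given in the labels. By its title, the series asks whether Yap1, a transcriptional coactivator of the Hippo pathway, works differently in males and females.

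Fast excitatory signals in the brain pass through AMPA, kainate and NMDA receptors, which are ion channels, and inhibitory signals pass through GABA-A receptors, which are chloride channels built mainly from alpha, beta and gamma subunits. Granule cells of the cerebellum are glutamate-receiving neurons that are born from cycling progenitors in the external granule layer. In normal development of the mouse, young granule cells use NMDA receptors with the Grin2b subunit and exchange it for Grin2c as they mature, while Gabra6 and Gabrd mark the mature granule cell.

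Barcodes were kept from 500 unique molecular identifiers (UMIs) and 300 genes upward where mitochondrial UMIs made up no more than 20%. This left 7882 barcodes from YSG males, 7193 from YSG females, 8419 from SG males and 7656 from SG females. The median was 5872.5, 6667, 6197 and 7419.5 UMIs per cell in the same order of libraries. Any pair of libraries shared between 9 and 21 barcodes. Yap1, the targeted gene, had 10 UMIs in YSG males and 3 in YSG females, against 266 in SG males and 374 in SG females. A level here is the number of UMIs of a gene divided by all UMIs of the same cells and scaled to 1000000 (CPM), so it is relative to all other transcripts. A UMI marks the 3' end of 1 transcript, so levels were not divided by gene length.

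Cells were sorted by marker genes into 3 states. Cycling cells had 8 or more UMIs of 10 proliferation genes such as Mki67. Early cells had 3 or more UMIs of Cntn2 and Robo3, which mark freshly postmitotic granule neurons, and maturing cells had 3 or more UMIs of Kcna1 and Unc5c. Barcodes with markers of another cell type were left out of the states. The maturing state as first set held 27 cells in YSG males, 157 in YSG females, 26 in SG males and 17 in SG females, so that YSG females alone reached the minimum of 50 cells. A wider maturing gate of 2 or more UMIs was therefore added after the cells had been counted. It held 111 cells in YSG males, 553 in YSG females, 115 in SG males and 116 in SG females. It is used for every maturing value below unless the first gate is named. Of these cells, 51, 317, 70 and 74 in the same order of libraries were also over the early threshold. They counted as maturing, which left 703, 863, 804 and 703 early cells under the wider gate. Kcna1 was detected in 52, 368, 38 and 35 of the maturing cells, and Unc5c in 91, 446, 105 and 108. The mix of the 2 markers thus differed between libraries.

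Granule neuron and granule progenitor genes, which had no part in the sorting, followed the names of the states, here read under the wider gate. The summed level of 10 granule neuron genes, all of them detected, was 873 to 1907 CPM in cycling cells, 3082 to 4596 CPM in early cells and 3859 to 5042 CPM in maturing cells over the 4 libraries. The summed level of 8 granule progenitor genes was 1257 to 1459 CPM in cycling, 889 to 1025 CPM in early and 641 to 863 CPM in maturing cells. Lists for other cell types had been used to leave barcodes out, and what was left of them differed between states. The 5 markers of GABAergic interneurons summed to at most 2.56 CPM in any state of any library. The 4 oligodendrocyte precursor markers summed to 89.2 to 122 CPM in cycling, 183 to 263 CPM in early and 119 to 165 CPM in maturing cells. Gpr17 among them was at 0 in early cells of YSG males and SG males. In maturing cells Cspg4 and Gpr17 were at 0 in YSG males, Cspg4 in YSG females and Gpr17 in SG females. The 5 astroglia markers summed to 105 to 173 CPM in cycling, 176 to 234 CPM in early and 168 to 188 CPM in maturing cells. Not all of the 5 were detected. Aldh1l1 was at 0 in early cells of YSG males. In maturing cells Aqp4, Gja1 and Aldh1l1 were at 0 in YSG males. Gja1 and Aldh1l1 were at 0 in maturing cells of YSG females, and Aqp4 and Aldh1l1 in those of SG females. Both sums were higher in early than in cycling cells of all 4 libraries, and their part in the receptor differences between states was not tested.

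The members covered a wide range of levels. Over all kept cells, 16 members reached 5 CPM in at least 1 library, 9 peaked between 1 and 5 CPM, and 20 stayed under 1 CPM in every library. Gria2, the AMPA subunit that makes the channel impermeable to calcium, had 68468 UMIs over the 4 libraries and was the most abundant of the 45. The AMPA subunit Gria4 had 13520 UMIs, the kainate subunit Grik2 had 11361 and the NMDA subunit Grin2b had 5754.

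The subunits that mark the mature granule cell were scarce in all 4 libraries. Gabra6 had 29 UMIs in all, Grin2c had 50 and Gabrd had 36. The rho subunits Gabrr1 and Gabrr3, known from the retina, had 2 and 4 UMIs, and the retinal metabotropic receptor Grm6 had 1 UMI. No member was at 0 UMIs in all 4 libraries.

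**Figure D1:**
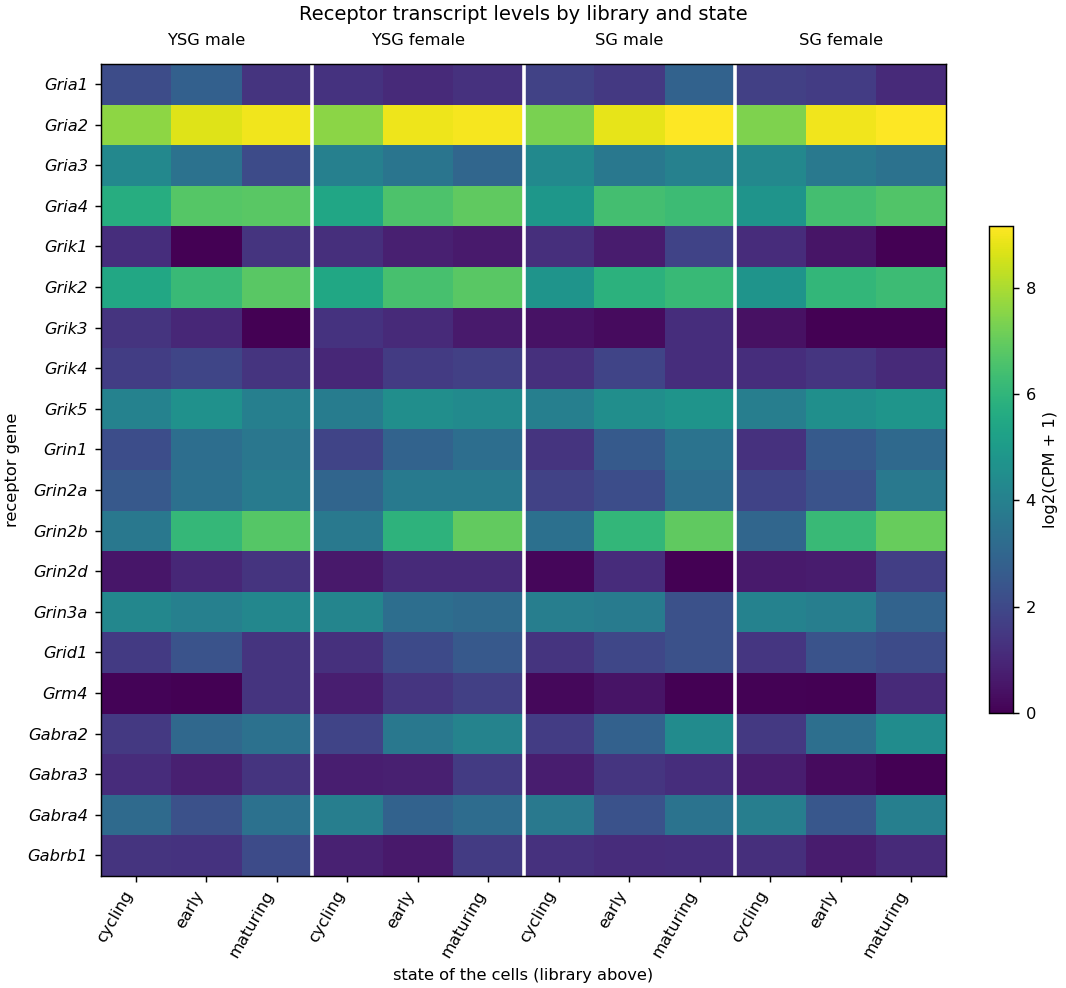
Levels of 20 of the 25 members tested between states. Columns are the cycling, early and maturing cells of each library under the wider gate. Rows are genes grouped by receptor class, and colour is log2(CPM + 1). Gria2 is the brightest row in all 4 libraries, and Grin2b brightens at each step between states.

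Start-site regions were read for the most abundant member and for a pair of GABA-A alpha subunits that lie in 1 gene cluster and behaved differently between states below. They come from RefSeq on GRCm38.p6, which held a window of 300 bases (250 before the start site to 50 after it) for 30 of the 45 members. Gria2 is a minus-strand gene of chromosome 3, from 80681450 to 80802835 (mm10, GENCODE M21). On chromosome 5, all on the minus strand, Gabrg1 lies at 70751047 to 70842617, Gabra2 at 70957597 to 71095849 and Gabra4 at 71569749 to 71658308. The plus-strand Gabrb1, at 71658113 to 72149037, overlaps the first bases of Gabra4. Capitals mark the SP1 GC box GGGCGG or its reverse complement CCGCCC, with each window written 5′ to 3′ on the strand of the gene.
Gria2 (chr3:80802786-80803085, minus strand): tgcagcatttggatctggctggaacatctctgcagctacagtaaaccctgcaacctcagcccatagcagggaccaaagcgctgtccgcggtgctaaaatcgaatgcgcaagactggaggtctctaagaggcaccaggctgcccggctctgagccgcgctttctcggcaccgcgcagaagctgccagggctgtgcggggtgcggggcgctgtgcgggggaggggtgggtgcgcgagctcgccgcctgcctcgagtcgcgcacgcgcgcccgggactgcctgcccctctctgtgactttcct
Gabra2 (chr5:71095800-71096099, minus strand): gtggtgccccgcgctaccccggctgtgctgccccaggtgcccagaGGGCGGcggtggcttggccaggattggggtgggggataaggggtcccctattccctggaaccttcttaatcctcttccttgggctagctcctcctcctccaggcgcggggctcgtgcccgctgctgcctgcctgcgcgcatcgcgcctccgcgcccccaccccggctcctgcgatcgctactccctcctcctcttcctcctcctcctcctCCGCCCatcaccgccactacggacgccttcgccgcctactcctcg
Gabra4 (chr5:71658259-71658558, minus strand): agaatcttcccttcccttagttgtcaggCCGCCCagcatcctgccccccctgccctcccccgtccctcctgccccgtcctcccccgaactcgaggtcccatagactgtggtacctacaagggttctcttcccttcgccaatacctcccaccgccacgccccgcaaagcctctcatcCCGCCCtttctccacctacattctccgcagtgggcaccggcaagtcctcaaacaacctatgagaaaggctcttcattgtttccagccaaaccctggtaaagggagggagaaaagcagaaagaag

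The windows were searched on both strands for 5 motifs, none of which contains another. These were the GLI site GACCACCCA, the TEAD site GGAATG, the E-boxes CAGCTG and CAGATG, and the GC box. The windows of Gabra2 and Gabra4 each held 2 GC boxes, and the Gria2 window held none of the 5 motifs. Of all 32851 windows in the table, 35.66% held a GC box, 0.2527% the GLI site, 14.66% the TEAD site, 16.3% CAGCTG and 17.15% CAGATG. The windows were 65.67% G and C for Gria2, 70% for Gabra2 and 58.67% for Gabra4. These letters are a description of the 3 windows only.

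The first comparison set early against cycling cells, within each of the 4 libraries and under the first gate. Of 25 members with enough counts to be tested, 17 differed at an adjusted p of 0.05 or less by edgeR's quasi-likelihood test with Benjamini-Hochberg adjustment over 13501 genes. Of these 17, 12 were higher and 5 were lower in early cells. The same test called 62.5% of all genes, 31.7% higher and 30.8% lower, so the share of members called was close to that of the background. The median log2 difference was 0.53 over the 25 members and 0.03 over all genes. Each library had 1 sum per state, and the library was a term of the fit. The p-values therefore rest on how far the state difference varied from library to library. Cycling cells were also sequenced to a higher median depth, 8213 to 10490 UMIs per cell, against 4796.5 to 5779.5 in early cells.

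Early cells held more transcripts of the NMDA subunit Grin2b, which slows the closing of the channel. Its level in early cells was 71.0 CPM in YSG males, 74.1 in YSG females, 73.6 in SG males and 78.7 in SG females. In cycling cells it was 11.6 CPM in YSG males, 11.9 in YSG females, 9.47 in SG males and 7.04 in SG females. The states did not overlap, and early cells of the 4 libraries lay close together. The difference was 2.81 ± 0.14 on the log2 scale (SE, 4 libraries, higher in 4 of 4, adjusted p = 2.2e-07, edgeR). Earlier results of these data had already shown Grin2b in the maturing cells, so its order between states is not independent evidence. In barcodes with leukocyte markers, which should lack neuronal receptors, Grin2b had 5 UMIs, or 22.1 CPM over the 4 libraries together, at a median of 975 to 2301 UMIs per barcode. Of these UMIs 1 was from YSG males and 4 were from YSG females, while leukocyte barcodes of SG males and SG females had 0, of 11937 and 27203 UMIs in all. The cycling levels of Grin2b lay below the pooled leukocyte level, which rests on the YSG libraries alone. Gria2 had 4 UMIs in these barcodes, or 17.7 CPM, against 159 to 191 CPM in cycling cells. Gria4 (4 UMIs) and Grik2 (0 UMIs) also lay below their cycling levels. Grin2a, Gria1 and Grik3, on 1 to 2 UMIs, lay above theirs. Leukocyte barcodes with cycling or early markers had been left out, but not those with maturing markers. The source of these UMIs was not tested.

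The obligatory NMDA subunit Grin1, without which no NMDA channel forms, was also higher in early cells, by 1.42 ± 0.17 (log2, SE, adjusted p = 7.2e-05, edgeR). Its early levels were 9.16 CPM in YSG males, 7.25 in YSG females, 5.06 in SG males and 4.90 in SG females. In cycling cells they were 3.49, 2.65, 1.60 and 1.45 CPM in the same libraries. Both YSG libraries were above both SG libraries in either state. Grin2a, the subunit typical of adult forebrain NMDA receptors, was higher by 0.67 ± 0.15 (log2, SE, adjusted p = 0.0029, edgeR), with 9.16 CPM in early cells of YSG males and 11.98 in YSG females, against 4.12 in SG males and 4.33 in SG females. Without the library as a block Grin2a was not called (0.72, log2, adjusted p = 0.20, edgeR). Grin3a, a subunit that lowers calcium entry through NMDA channels, was lower in early cells, by -0.55 ± 0.14 (log2, SE, adjusted p = 0.0083, edgeR).

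Of the AMPA subunits, Gria2 and Gria4 were higher and Gria3 was lower in early cells. Gria2 had 419 CPM in early cells of YSG males, 489 in YSG females, 464 in SG males and 506 in SG females. In cycling cells Gria2 had 191 CPM in YSG males, 190.1 in YSG females, 159 in SG males and 167 in SG females, with no overlap between states. The log2 difference was 1.29 ± 0.07 (SE, adjusted p = 5.7e-07, edgeR).

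Gria4, a subunit common in cerebellar cells early in life, differed by 1.31 ± 0.11 (log2, SE, adjusted p = 5.1e-06, edgeR). It had 108 CPM in early cells of YSG males, 103 in YSG females, 82.6 in SG males and 87.6 in SG females, against 51.3, 41.3, 27.5 and 25.6 CPM in cycling cells of the same libraries. The states did not overlap, and both YSG libraries were above both SG libraries in either state. Gria3 was the opposite case. It had 9.16 CPM in early cells of YSG males, 9.62 in YSG females, 11.99 in SG males and 12.05 in SG females, and 14.99 to 19.2 CPM in cycling cells. It was lower in early cells of all 4 libraries by -0.84 ± 0.11 (log2, SE, adjusted p = 1.4e-04, edgeR). Gria1 differed by -0.02 ± 0.25 (log2, SE, adjusted p = 0.999, edgeR).

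Among kainate receptors, which need Grik1, Grik2 or Grik3 to form a channel and bind glutamate more tightly with Grik4 or Grik5, Grik2 was higher in early cells by 1.01 ± 0.09 (log2, SE, adjusted p = 1.4e-05, edgeR). It had 75.4 CPM in YSG males, 95.7 in YSG females, 58.4 in SG males and 67.6 in SG females, against cycling levels of 43.7, 43.2, 25.5 and 25.7 CPM in the same libraries. Grik5 differed by 0.53 ± 0.09 (log2, SE, adjusted p = 7.1e-04, edgeR). Its early level was 23.0 CPM in YSG males, 20.8 in YSG females, 23.0 in SG males and 22.8 in SG females, against 15.6, 13.3, 14.3 and 14.0 CPM in cycling cells of the same libraries. The libraries lay close together in each state. Grik1 was lower by -1.49 ± 0.38 (log2, SE, adjusted p = 0.0071, edgeR), on 1 to 4 UMIs per library in early cells and 17 to 34 in cycling cells.

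Grid1, a delta receptor that binds cerebellin at synapses, was higher in early cells by 1.02 ± 0.20 (log2, SE, adjusted p = 0.0017, edgeR). It had 3.99 CPM in early cells of YSG males, 3.48 in YSG females, 3.18 in SG males and 4.14 in SG females, all above the cycling levels of 1.41 to 1.94 CPM.

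Among GABA-A subunits, Gabra2 and Gabra4 went opposite ways. Both are alpha subunits, which together with the beta subunits form the GABA site. Gabra2 had 7.52 CPM in early cells of YSG males, 12.1 in YSG females, 7.49 in SG males and 10.4 in SG females, against 1.87, 2.65, 2.11 and 1.89 CPM in cycling cells of the same libraries. Gabra4 had 3.52 CPM in early cells of YSG males, 6.41 in YSG females, 4.68 in SG males and 5.27 in SG females, against 8.08, 14.0, 12.1 and 14.0 CPM in cycling cells of the same libraries. Neither gene showed overlap between the states. The log2 differences were 2.01 ± 0.17 for Gabra2 and -1.39 ± 0.13 for Gabra4 (SE, 4 of 4 libraries each, adjusted p = 7.0e-06 and 1.6e-05, edgeR).

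**Figure D2:**
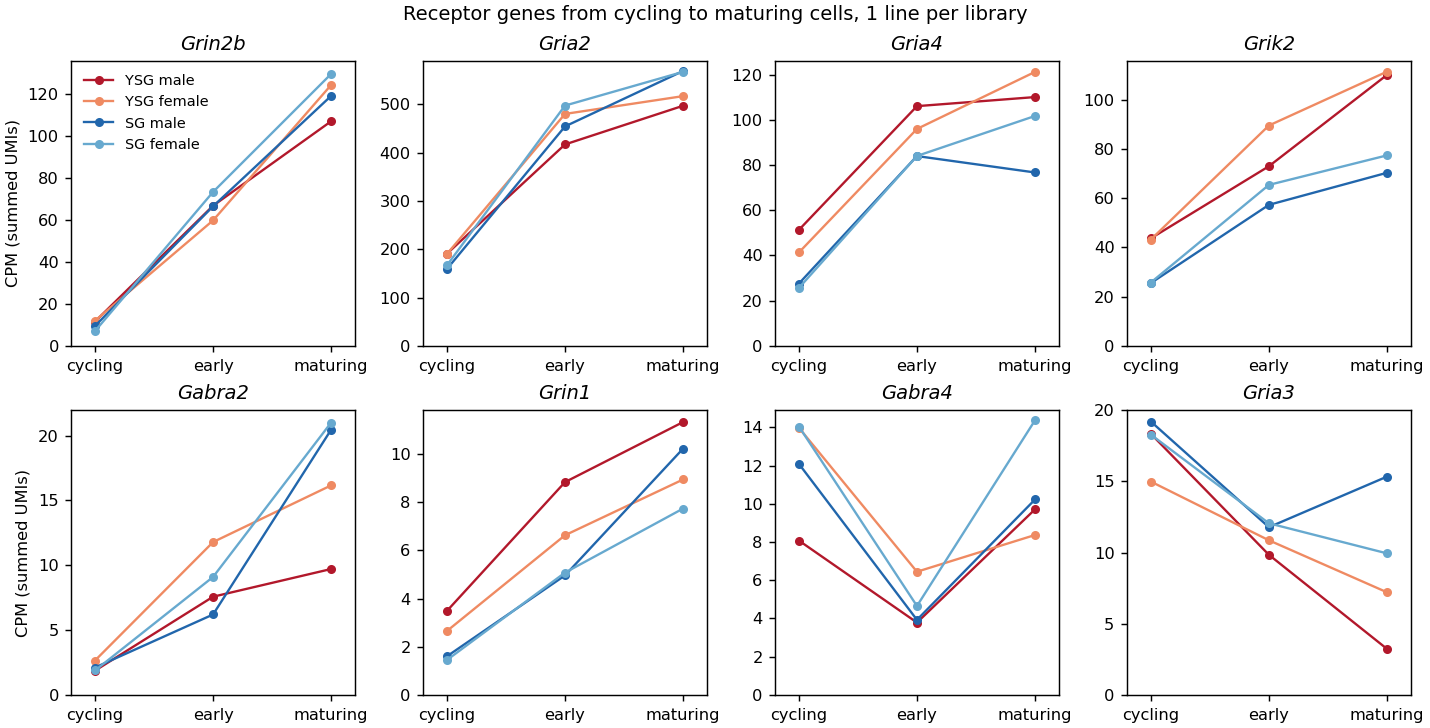
Levels (CPM of summed UMIs, axes from 0) of 8 members in cycling, early and maturing cells (wider gate), 1 line per library. Grin2b, Gria2 and Gabra2 climb in all 4 libraries, Gabra4 dips in early cells, and the YSG lines of Grik2 lie above the SG lines at each state.

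Among the 8 members that were tested and not called between early and cycling cells were Grik3, Gabrb1, Grin2d, Grik4, Gria1, Grm4 and Gabra3. The 20 members below the count needed for the test had no value in this comparison.

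The second comparison set maturing against cycling cells. Under the first gate, where YSG females were the only library with a maturing sum, 11 of 25 members were called by edgeR, 9 higher and 2 lower, beside 24.6% of all genes, 10.5% higher and 14.1% lower. That test sets 1 maturing sum against the other states and takes its spread from the cycling and early sums, so that the lone sum is assumed to vary as they do. Under the wider gate, with all 4 libraries, 16 of 19 tested members were called by edgeR, 12 higher and 4 lower, beside 57.7% of all 11849 genes, of which 28.2% were higher and 29.5% lower. The median log2 difference was 1.20 over the 19 members and -0.0015 over all genes.

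Grin2b reached 107 CPM in maturing cells of YSG males, 124 in YSG females, 119 in SG males and 129 in SG females. Compared with cycling cells this was a log2 difference of 3.52 ± 0.16 (SE, 4 of 4 libraries, adjusted p = 6.3e-11, edgeR). Maturing Gria2 was 497 CPM in YSG males, 517 in YSG females, 569 in SG males and 567 in SG females, a log2 difference of 1.49 ± 0.08 from cycling cells (SE). All 4 maturing values of both genes lay above all cycling values.

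Gabra2 was 9.71 CPM in maturing cells of YSG males, 16.2 in YSG females, 20.45 in SG males and 20.999 in SG females, from 6, 56, 16 and 19 UMIs. Its log2 difference from cycling cells was 2.80 ± 0.26 (SE), the second largest among the members called. Maturing Grin1 was 11.3 CPM in YSG males, 8.94 in YSG females, 10.2 in SG males and 7.74 in SG females, above its cycling level in every library. Gria4 had 110.04 CPM in maturing cells of YSG males, 121 in YSG females, 76.7 in SG males and 102 in SG females. Maturing Grik2 was 110.04 CPM in YSG males, 111 in YSG females, 70.3 in SG males and 77.4 in SG females. Grin1 differed by 1.93 ± 0.26, Gria4 by 1.44 ± 0.13 and Grik2 by 1.31 ± 0.11 (log2, SE). Grin2a, Grid1 and Grik5 were also higher, by 0.50 to 1.20 on the log2 scale. Of these, Grin2a had 12.9 CPM in maturing cells of YSG males, 12.4 in YSG females, 8.95 in SG males and 12.2 in SG females. With 1 UMI making 1.62 CPM in YSG males and 1.28 CPM in SG males, these levels rest on few UMIs there. Grik5 had 14.6 CPM in maturing cells of YSG males, 19.9 in YSG females, 25.6 in SG males and 26.5 in SG females, so that YSG males lay below their own cycling level. Its log2 difference of 0.50 was past the threshold in only 6 of 12 alternative fits, and leaving out YSG females, SG males or SG females gave adjusted p-values of 0.066, 0.071 and 0.083 (edgeR). Grid1 had 1.62 CPM in maturing cells of YSG males, also below their cycling level but no more than the level of 1 UMI. Its level was 4.90 CPM in YSG females, 3.83 in SG males, where 1 UMI makes 1.28 CPM, and 3.32 in SG females. Its log2 difference of 1.20 was 0.67 without YSG females (adjusted p = 0.36, edgeR) and 1.20 without the cells over both thresholds (adjusted p = 0.22, edgeR). The latter fit had no maturing sum for SG males or SG females, which fell below 50 cells.

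The 4 members lower in maturing than in cycling cells included Gria3 and Grin3a. Gria3 had 3.24 CPM in maturing cells of YSG males, 7.21 in YSG females, 15.3 in SG males and 9.95 in SG females, from 2, 25, 12 and 9 UMIs, and differed by -1.11 ± 0.22 (log2, SE, adjusted p = 4.7e-04, edgeR). The highest of these values, that of SG males, lay above the lowest cycling value. Grin3a, with 17.8 CPM in YSG males, 8.08 in YSG females, 3.83 in SG males and 6.63 in SG females, differed by -1.01 ± 0.25 (log2, SE, adjusted p = 0.0027, edgeR). The maturing value of YSG males was within the cycling range of 14.2 to 17.8 CPM. Neither gene was called with cells over both thresholds left out (adjusted p = 0.11 for Gria3 and 0.33 for Grin3a, edgeR), where the log2 difference of Grin3a was -0.53. That fit had no maturing sum for SG males or SG females, which fell below 50 cells. With no exclusion of other cell types Gria3 differed by -0.57 (log2, adjusted p = 0.0063, edgeR). Gabra4, called between early and cycling cells, was not called here (-0.47 ± 0.22, log2, SE, adjusted p = 0.078, edgeR).

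The third comparison set maturing against early cells. Under the first gate edgeR called 0 of 25 members and 0 of 13501 genes, which is 0% of the background. At an unadjusted p under 0.05 there were 4 members and 1580 genes, and DESeq2 called 0 members and 50 genes. Under the wider gate edgeR called 3 of 19 members, all higher in maturing cells, beside 4.3% of all genes called either way and 2.54% called higher. These were Grin2b at 0.87 ± 0.14, Gabra4 at 0.995 ± 0.26 and Gabra2 at 0.90 ± 0.24 (log2, SE, adjusted p = 0.0048, 0.047 and 0.049, edgeR), each higher in 4 of 4 libraries. Gabra4 had 9.71 CPM in maturing cells of YSG males, 8.37 in YSG females, 10.2 in SG males and 14.4 in SG females. The early cells left under the wider gate had 3.79, 6.45, 3.93 and 4.65 CPM in the same libraries. This count was unstable: leaving out 1 library at a time gave 1 to 2 members, and leaving out cells over both the early and the maturing threshold gave 0. The last of these fits had no maturing sum for SG males, with 45 cells, or SG females, with 42. It therefore differs in libraries as well as in cells. These counts come without the share of all genes called under the same fits.

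Within the receptor classes the make-up shifted between states, here with early and maturing cells both read under the wider gate. Grin2b held 61.0 to 77.6% of the UMIs of the Grin2 genes in cycling cells, 81.4 to 93.8% in early cells and 85.7 to 93.0% in maturing cells over the 4 libraries. Gria2 held 72.3 to 78.3% of the AMPA subunit UMIs in cycling cells, 77.4 to 83.5% in early cells and 79.9 to 85.2% in maturing cells. Ionotropic glutamate receptor genes summed to 294 to 383 CPM in cycling, 735 to 803 CPM in early and 906 to 958 CPM in maturing cells. Metabotropic genes summed to at most 18.8 CPM in any state.

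Partners of the receptors were read from a list of 49 genes for auxiliary subunits, scaffolds, adhesion proteins, transporters and the metabotropic GABA-B receptor. Between early and cycling cells edgeR called 27 of 42 tested partners, 20 higher and 7 lower, beside 62.5% of all genes, 31.7% higher and 30.8% lower. Between maturing and cycling cells under the wider gate it called 29 of 40, 22 higher and 7 lower, beside 57.7% of all genes, 28.2% higher and 29.5% lower. The 3 largest increases were those of Cnih2, an AMPA auxiliary subunit, at 2.61 ± 0.15, Gabbr2, a GABA-B subunit, at 2.59 ± 0.28, and the presynaptic adhesion gene Nrxn3 at 2.18 ± 0.25 (log2, SE). The 3 largest decreases were those of the AMPA auxiliary subunit Gsg1l at -2.61 ± 0.24, the secreted cerebellin Cbln4 at -2.52 ± 0.39 and the AMPA auxiliary subunit Cacng3 at -1.36 ± 0.35 (log2, SE).

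The last comparison set YSG against SG within each sex. With 1 library per genotype and sex there was no replicate and no test, and the intervals given are exact 95% intervals for counting error only. Genotype cannot be told apart from the animal or the capture run. Of 14 members at 5 CPM or more in males, 2 were at least 2-fold higher in YSG and 0 lower on the scale of log2(CPM + 1), beside 1.56% of all genes higher and 2.37% lower. Of 14 in females, 3 were higher and 0 lower, beside 3.11% and 2.45% of all genes. Of 12 members measured in both sexes, 1 was past 2-fold in both, beside 1.1% of all genes higher and 1.58% lower. The median log2 difference of the members was 0.26 in males and 0.60 in females, and that of all genes was -0.01 in males and 0.00 in females.

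Granule neuron markers were higher in both YSG libraries than in both SG libraries among cycling and early cells, and overlapped among maturing cells. Among cycling cells they summed to 1629 CPM in YSG males and 1907 CPM in YSG females, against 922 CPM in SG males and 873 CPM in SG females. Among early cells under the wider gate they summed to 3848 CPM in YSG males and 4596 CPM in YSG females, against 3099 CPM in SG males and 3082 CPM in SG females. Among maturing cells they summed to 4060 CPM in YSG males and 5042 CPM in YSG females, against 3859 CPM in SG males and 4286 CPM in SG females. Their part in the receptor differences between genotypes was not tested.

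**Figure D3:**
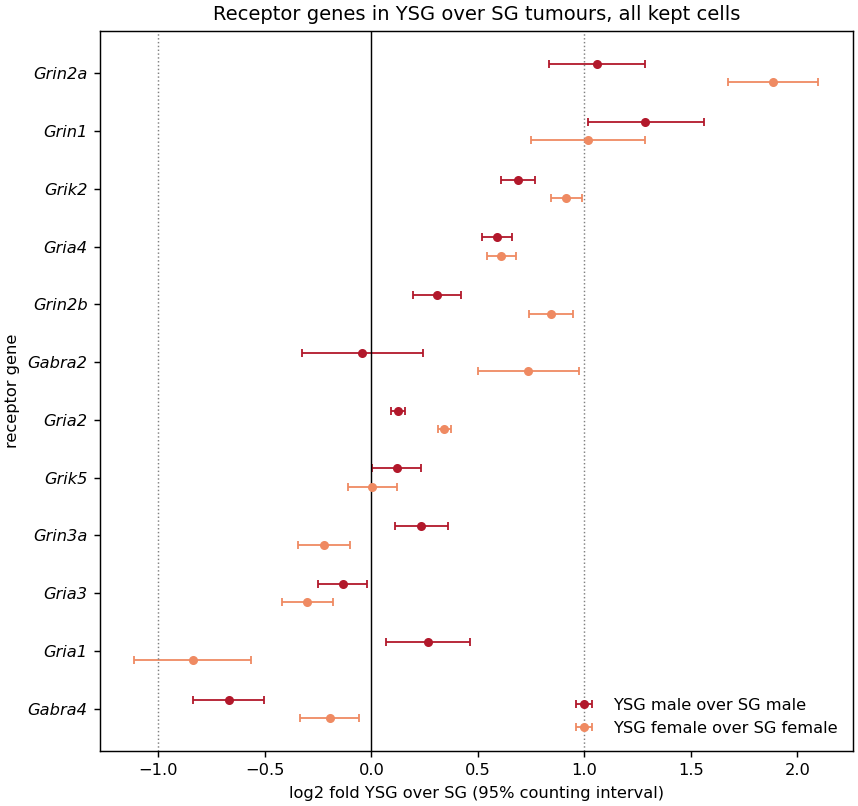
Fold of YSG over SG (log2, dots, with exact 95% counting intervals) over all kept cells, for 12 of the members that reached 5 CPM in either sex. Dotted lines mark 2-fold. Grin2a lies right of 2-fold in both sexes before 1 CPM is added, and Gabra4 and Gria3 lie left of 0 in both.

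Gria4 and Grik2 were higher in YSG in both sexes, by less than 2-fold. Gria4 had 63.0 CPM in YSG males, against 41.9 CPM in SG males, and 57.5 CPM in YSG females, against 37.7 CPM in SG females, which gave 1.505-fold in males (1.43 to 1.58) and 1.53-fold in females (1.45 to 1.60). Grik2 had 49.5 CPM in YSG males, against 30.7 CPM in SG males, and 58.5 CPM in YSG females, against 31.0 CPM in SG females. The males differed by 1.61-fold (1.53 to 1.70) and the females by 1.89-fold (1.79 to 1.98). Within cycling cells Grik2 differed by 1.71-fold in males and 1.68-fold in females, within early cells by 1.29-fold and 1.42-fold, and within maturing cells by 1.57-fold and 1.44-fold. Within cycling cells Gria4 differed by 1.86-fold in males and 1.61-fold in females, within early cells by 1.303-fold and 1.18-fold, and within maturing cells by 1.43-fold (0.999 to 2.07) and 1.19-fold (0.949 to 1.51).

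Among members at 5 CPM or more, Grin2a had the largest fold in females. It had 7.42 CPM in YSG males, against 3.57 CPM in SG males, and 11.1 CPM in YSG females, against 2.995 CPM in SG females. The males differed by 2.08-fold (1.78 to 2.43), which was still under 2-fold on the log2(CPM + 1) scale, and the females by 3.69-fold (3.19 to 4.28). Within early cells the males differed by 2.22-fold (1.29 to 3.94) and the females by 2.77-fold (1.73 to 4.59). Grin1 was 2.44-fold higher in YSG males (2.02 to 2.95), with 5.67 CPM, against 2.32 CPM in SG males. It was 2.02-fold higher in YSG females (1.68 to 2.44), with 4.68 CPM, against 2.32 CPM in SG females, which kept it under the 5 CPM minimum in females.

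Gria2 and Grin2b, which differed most clearly between states, differed less between genotypes than between states. In females the fold of Grin2b was still above that of Gria4. Gria2 had 247 CPM in YSG males, against 227 CPM in SG males, and 290.4 CPM in YSG females, against 229 CPM in SG females. Within cycling cells Gria2 was also higher in YSG, at 191 against 159 CPM in males and 190.1 against 167 CPM in females. Within early cells under the wider gate it was lower in YSG, at 417 against 454 CPM in males and 480 against 497 CPM in females. Within maturing cells Gria2 was lower in YSG as well, at 497 against 569 CPM in males and 517 against 567 CPM in females. Grin2b had 22.3 CPM in YSG males, against 18.0 CPM in SG males, and 28.9 CPM in YSG females, against 16.1 CPM in SG females, so that males differed by 1.24-fold (1.15 to 1.34) and females by 1.79-fold (1.67 to 1.93). Within cycling cells the ratio of Grin2b was 1.22 for males (1.001 to 1.49) and 1.70 for females (1.36 to 2.11). Within early cells the ratio of Grin2b was 0.964 for males (0.827 to 1.12) and 0.942 for females (0.827 to 1.07). Within maturing cells it was 0.899 for males (0.645 to 1.24) and 0.959 for females (0.780 to 1.19), so that no difference was detectable in early or maturing cells at this depth. The share of maturing cells among kept cells was 1.41% in YSG males and 7.69% in YSG females, against 1.37% in SG males and 1.52% in SG females.

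Among members at 5 CPM or more, Gabra4 lay furthest below 1 in males. It had 7.23 CPM in YSG males, against 11.5 CPM in SG males, a fold of 0.629 (0.559 to 0.706), and 11.4 CPM in YSG females, against 13.0 CPM in SG females, a fold of 0.873 (0.792 to 0.961). For Gria3 the ratio was 0.910 among males (0.839 to 0.987) and 0.812 among females (0.747 to 0.882). Members under 5 CPM held folds further from 1 on few UMIs. Grm5, a group I metabotropic receptor, had 55 UMIs in YSG males, against 170 in SG males, a fold of 0.389 (0.281 to 0.530). The GABA-A subunit Gabrg1 had 27 UMIs in YSG males, against 87 in SG males, a fold of 0.373 (0.233 to 0.580). Grm4, a group III metabotropic receptor, had 49 UMIs in YSG females, against 8 in SG females, a fold of 9.12 (4.28 to 22.3). The other sex went the same way for these genes. Grm5 had 62 UMIs in YSG females, against 176 in SG females, and Gabrg1 had 24, against 101. Grm4 had 31 UMIs in YSG males, against 13 in SG males.

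Members past 2-fold were also counted within single states. Among cycling cells there were 0 of 11 in males, beside 1.99% of all genes higher and 2.59% lower, and 4 of 13 in females, all higher, beside 2.79% higher and 2.8% lower. Grin2a was 1 of the 4. Among early cells there was 1 of 15 in males, Gria1 with 24 UMIs in YSG and 12 in SG, beside 1.72% of all genes higher and 1.7% lower. There was 1 of 16 in females, Grin2a, beside 2.86% higher and 1.39% lower. Among maturing cells of males, 1 of 16 was higher (Grin3a) and 4 were lower (Gabra2, Gria1 and Gria3 among them), beside 6.28% and 7.78% of all genes, on 1 to 11 UMIs of each in YSG and 3 to 16 in SG. Among maturing cells of females there were 0 of 15, beside 4.65% higher and 3.31% lower. No member was 2-fold higher or lower in both sexes within cycling cells (0 of 11, beside 1.23% of all genes higher and 1.75% lower), early cells (0 of 14, beside 0.887% and 0.625%) or maturing cells (0 of 15, beside 1.12% and 1.15%).

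**Figure D4:**
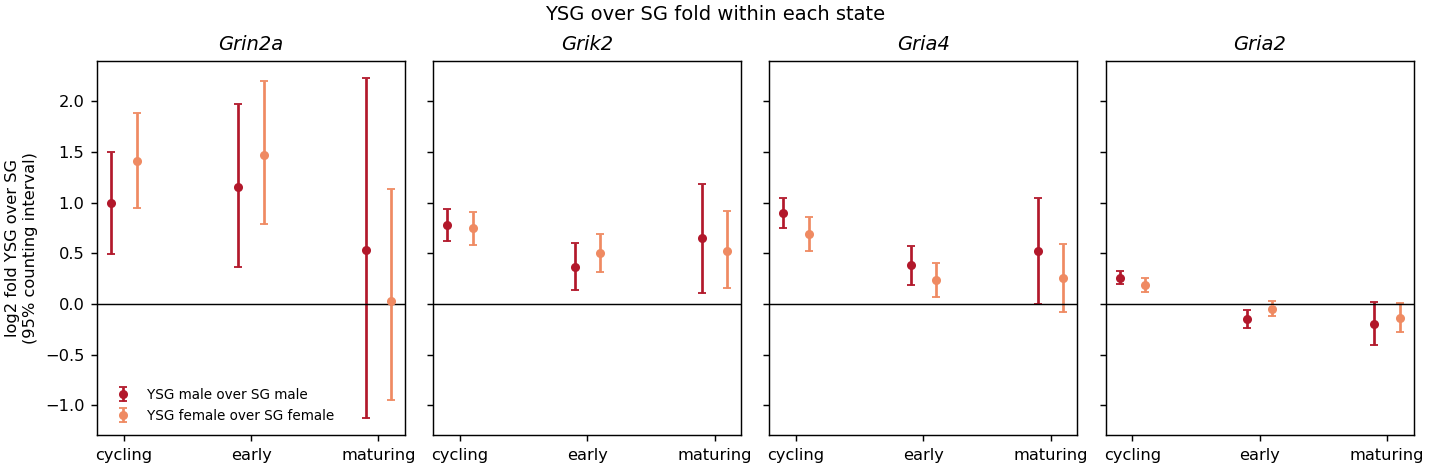
Fold of YSG over SG (log2, dots, with exact 95% counting intervals) for Grin2a, Grik2, Gria4 and Gria2 in cycling, early and maturing cells, separately for males and females; early cells follow the first gate and maturing cells the wider gate. Grik2 lies above 0 in all 3 states and both sexes, the intervals of Grin2a span 0 in maturing cells, and Gria2 lies below 0 in early and maturing cells.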

How the data were processed

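The deposited values are counts: per the file headers, Cell Ranger 5.0.1 wrote 1 sparse matrix of UMIs per gene and barcode for each of the 4 libraries, not normalized, with mm10 as the build per the submitters' processing notes. The number of barcodes deposited was 8013, 7289, 8505 and 7726 for YSG males, YSG females, SG males and SG females, with 60884286, 58308739, 73147047 and 86810253 UMIs in the cells kept. The receptor genes and the lists of states, markers and partners were chosen with earlier results of these data known.

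UMIs were summed per library and state. States were compared with edgeR 4.0.16 (R 4.3.3): quasi-likelihood F test, TMM scaling, filterByExpr, state and library as terms, gate genes left out of the test, Benjamini-Hochberg adjustment and a threshold of 0.05. The SE printed with a log2 difference is the size of that difference divided by the square root of its F statistic. A library with under 50 cells in a state gave no sum for it. The replicate number of the labels is 1 in every group, so the block is the library itself. A cell over both the early and the maturing threshold went to the larger sum under the first gate and to maturing under the wider gate, and neither state allowed more than 3 cycling UMIs. A barcode with 3 or more UMIs from 2 or more genes of a list for another cell type entered no state. This took out 1095 barcodes in YSG males and 965 in YSG females, against 902 in SG males and 1205 in SG females, that would otherwise have entered one, mostly through the astroglia and oligodendrocyte precursor lists. Genotypes were compared as log2 ratios of CPM after adding 1 CPM to both sides, so that low genes show too small a ratio, for genes at 5 CPM or more in either library. Folds come from the counts with exact conditional binomial intervals (scipy 1.17.1), which treat UMIs as independent. Early cells follow the first gate there and maturing cells the wider gate.

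Values in every library are given for most subunits at 20 CPM or more in a sum and for the members called with 2-fold or more where counts allowed; the rest are given by ranges. Counts cover all members, of which a few are not reported here by name. Doublets were kept. Scrublet in scanpy 1.11.5 marked 0 barcodes at its own threshold, and removing the top scores, 368 to 418 barcodes per library, is an alternative. Other alternatives were DESeq2 1.42.0, no count filter, no block, each library left out, and other gates and cell filters. The scripts were tested on simulated data. Python 3.11.15, numpy 2.4.6, pandas 2.3.3 and matplotlib 3.10.9 were used.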

Additional observations from a re-analysis of the deposited data

Results flagged for a closer look

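Grin3a and Gria1 differed between YSG and SG in opposite directions in the 2 sexes, over all kept cells. The log2 ratio of YSG over SG for Grin3a was 0.22 in males and -0.21 in females. Its levels were 17.4 CPM in YSG males, against 14.8 CPM in SG males, and 14.9 CPM in YSG females, against 17.3 CPM in SG females. The Gria1 ratio on the log2 scale was 0.23 for males and -0.65 for females, with 6.96 CPM in YSG males, against 5.80 CPM in SG males, and 2.66 CPM in YSG females, against 4.75 CPM in SG females. Both female levels of Gria1 lay under the 5 CPM minimum of the genotype comparison. Barcodes with astroglia markers outside the states held 119 of 424 Gria1 UMIs in YSG males and 42 of 155 in YSG females. They held 127 of 424 in SG males and 97 of 412 in SG females. With 1 library per genotype and sex, the difference between the sexes was not tested.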

How the results depend on the processing

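The counts of members in this section come without the share of all genes called under the same setting. They show only how far the member counts moved. The count of members called between early and cycling cells was 17 in each fit that left out 1 library, and 17 with DESeq2. Between maturing and cycling cells the first gate (11 called) gave 9 to 10 when 1 library was left out, and could not be fitted without YSG females. The wider gate (16 called) gave 12 to 16. The stricter gate gave 7 under the first gate, and leaving out cells over both thresholds gave 7 under the first gate and 10 under the wider one, where both SG libraries fell below 50 maturing cells. Without the library as a block, 14 of 17 calls were left between early and cycling cells, 8 of 11 and 14 of 16 between maturing and cycling cells under the first and the wider gate, and 0 of 3 between maturing and early cells under the wider gate.

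Between maturing and early cells the first gate (0 called) gave 1 with no filter on low counts and 3 with the wider gate. The wider gate (3 called) gave 7 with no filter, 6 with no exclusion of other cell types, 1 with the top Scrublet scores removed, 0 with the gate set after thinning to 2000 UMIs, 0 with cells over both thresholds left out, and 1 to 2 when 1 library was left out. For these counts the cause was not tested.

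For YSG over SG in both sexes, the count past 2-fold over all kept cells (1) was 0 with a pseudocount of 5 CPM and 4 at 1.5-fold. In cycling cells (0) it was 1 with no exclusion and 3 at 1.5-fold. In early cells (0) it was 1 with the top Scrublet scores removed, 1 with the stricter gate and 2 at 1.5-fold. In maturing cells of males the log2 ratio of Gabra2 turned to 0.51 under the thinned gate, and that of Gria1 turned to 0.85 under the thinned gate and 0.81 with no exclusion. The stricter gate was not run for the wider maturing gate. Of the remaining values for single genes, 1892 kept their call or moved within their error, 79 moved beyond it, 40 lost the threshold and 11 gained it. The maturing sums of 111 to 116 cells limit all 3 libraries other than YSG females.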

Other observations

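Outside the 3 states, barcodes that met the astroglia marker list held other members. There were 340 such barcodes in YSG males and 258 in YSG females, against 217 in SG males and 253 in SG females. Grm5, a group I metabotropic receptor that astrocytes of young animals are known to carry, had 3.13 CPM in YSG males and 2.83 CPM in YSG females, against 30.2 CPM in SG males and 15.7 CPM in SG females. Gabrb1, a GABA-A beta subunit, had 9.05 CPM in YSG males and 1.62 CPM in YSG females, against 39.2 CPM in SG males and 24.1 CPM in SG females. Gabrg1, a gamma subunit known from Bergmann glia, had 1.39 CPM in YSG males and 0 UMIs in YSG females, against 18.0 CPM in SG males and 12.2 CPM in SG females. Gria1 had 41.4 CPM in YSG males and 17.0 CPM in YSG females, against 67.2 CPM in SG males and 37.1 CPM in SG females, while cycling cells of the 4 libraries had at most 3.42 CPM. Both YSG libraries were below both SG libraries for Grm5, Gabrb1 and Gabrg1, and YSG males were above SG females for Gria1. These genes were chosen after their values had been seen, the list can also take granule cells with a few astroglial UMIs, and nothing was tested here.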
